A study of Homo sapiens with 10 samples.

Results

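The peaks described here are all those that H4R3me2s ChIP-seq placed on human chromosomes 19 and 22, chosen by chromosome alone. The 9 libraries called against Input held 749 of them, 433 on chromosome 19 and 316 on chromosome 22, out of 67753 peaks in all. The pooled lists of BDNF+Dox added 91 narrow and 224 broad peaks over BDNF and 81 narrow and 196 broad peaks over Naive, which makes 1341 of 131026 peaks over the 13 lists.

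H4R3me2s is the symmetric dimethylation of arginine 3 on histone H4. The methyltransferase PRMT5 is its best known writer, and the mark is mostly described as repressive. Chromosome 19 carries large tandem families of KRAB zinc finger genes, whose proteins bind DNA and recruit the corepressor TRIM28 to silence transposable elements. Chromosome 22 is acrocentric: its short arm holds repeats, segmental duplications and few annotated genes.

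The cells were SH-SY5Y, an established neuroblastoma line that differentiates toward neurons when given retinoic acid. In the BDNF+Dox group (n = 3), cells received 10 µM retinoic acid for 6 days, then BDNF (a neurotrophin, 50 ng/ml) for 4 days, and 1 µg/ml doxycycline for 3 days to induce α-synuclein from a Tet-on construct. The BDNF group (n = 3) had the same differentiation without doxycycline, and the Naive group (n = 3) was untreated. A single Input library of untreated cells, without antibody, was the background of all 9 ChIP libraries. All cells were grown with zeocin, the labels do not say whether 1 clone was used, and no group had doxycycline without the construct. The labels do not tie replicates to separate cultures, so the spread that the p-values measure may be technical. After duplicate removal the libraries kept between 17164402 and 18928589 reads, per the file headers.

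Peaks came close to annotated promoters only rarely, and windows near pooled peaks are shown here for their base composition. Each is a RefSeq promoter window of GRCh38.p14, running from 250 bases before to 50 after an annotated start, printed 5′ to 3′ on the gene's strand with every CG dinucleotide in capitals. LINC01643 (chr22:34017182-34017481, plus strand) was the window overlapped by a peak of a pooled list. This gene is not protein-coding and was chosen after its values were seen. ZNF772 (chr19:57477517-57477816, minus strand) and ZNF726 (chr19:23914636-23914935, plus strand) are zinc finger genes with a pooled peak within 2 kb of a gene end. No pooled peak overlapped either window, and the nearest lay 318 and 500 bases away. Both were also chosen with the peaks known, and windows of some other genes lay nearer to a pooled peak.
LINC01643: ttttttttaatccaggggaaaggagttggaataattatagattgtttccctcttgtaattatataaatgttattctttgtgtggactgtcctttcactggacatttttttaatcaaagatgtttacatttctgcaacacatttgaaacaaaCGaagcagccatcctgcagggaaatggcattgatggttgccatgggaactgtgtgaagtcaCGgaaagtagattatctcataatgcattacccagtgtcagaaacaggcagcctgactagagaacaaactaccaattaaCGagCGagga
ZNF772: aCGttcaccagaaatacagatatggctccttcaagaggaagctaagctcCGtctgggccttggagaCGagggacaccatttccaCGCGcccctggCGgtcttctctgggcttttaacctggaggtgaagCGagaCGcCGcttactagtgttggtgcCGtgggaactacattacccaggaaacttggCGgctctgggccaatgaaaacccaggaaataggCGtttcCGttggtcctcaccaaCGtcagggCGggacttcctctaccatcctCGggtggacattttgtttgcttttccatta
ZNF726: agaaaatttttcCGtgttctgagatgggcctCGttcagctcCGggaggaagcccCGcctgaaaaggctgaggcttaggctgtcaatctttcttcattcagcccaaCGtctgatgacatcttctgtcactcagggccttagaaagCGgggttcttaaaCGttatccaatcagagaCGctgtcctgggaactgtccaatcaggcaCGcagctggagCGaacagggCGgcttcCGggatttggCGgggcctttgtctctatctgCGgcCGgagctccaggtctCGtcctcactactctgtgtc
The LINC01643 window was 38% G and C with 4 CG. The windows of ZNF772 and ZNF726 were 54.0% and 55.0% G and C, with 16 CG each. Among all 2585 windows of both chromosomes, searched for CG (which reads the same on either strand), 14.1% held as few CG as LINC01643 or fewer, and 44.8% as few as either zinc finger window or fewer. Promoter windows averaged 62.4% G and C on chromosome 19, 62.7% on chromosome 22 and 57.2% on the other chromosomes.

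None of the 749 library peaks overlapped a promoter window, a count of 0 that allows a share of up to 0.401% (counting error only). On the other chromosomes 87 of 63060 library peaks (0.138%, chromosome 8 not used here) did. In the authors' deposited table of broad peaks over BDNF, 1 of 224 regions overlapped a window: it covered 198 of the 300 bases of the LINC01643 window, with a fold of 2.41 and q = 1. The windows of the 170 RefSeq miRNA hairpins on both chromosomes were overlapped by 0 library peaks and 0 pooled peaks.

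Chromosomes 19 and 22 had fewer peaks for their length than any other chromosome. Chromosome 19 held 0.844 ± 0.283 (SD, n = 9) peaks per usable Mb and library and ranked 23rd of 23, although its 24.7 protein-coding genes per Mb ranked first. Chromosome 22 held 0.9003 ± 0.216 and ranked 22nd, with 11.3 genes per Mb. The other chromosomes together held 2.64 ± 0.873. Usable length is the number of 1 Mb bins that hold a gene or a peak, 57 for chromosome 19 and 39 for chromosome 22.

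**Figure D1:**
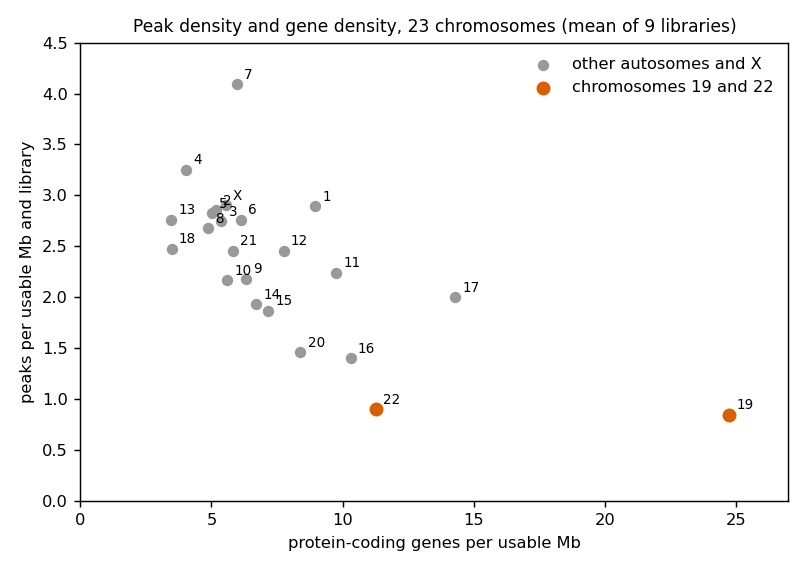
Peaks per usable Mb and library (mean of 9 libraries, linear scale) against protein-coding genes per usable Mb, with 1 point per chromosome and chromosomes 19 and 22 in orange. Both sit at the bottom, at 0.844 and 0.9003 peaks per Mb, while the gene-dense chromosome 17 lies at 2.00.

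The low density was present in every library. On chromosome 19, the BDNF+Dox libraries had 1.21, 0.772 and 0.439 peaks per Mb, the BDNF libraries 0.632, 0.632 and 0.807, and the Naive libraries 1.33, 0.895 and 0.877. On chromosome 22, the BDNF+Dox libraries had 1.08, 0.821 and 0.667 peaks per Mb, the BDNF libraries 1.21, 0.564 and 0.923, and the Naive libraries 1.103, 0.744 and 1.00. In the same libraries the other chromosomes ranged from 1.59 to 4.30, so each library lay lower on both chromosomes than on the rest. Chromosome 19 was 3.15-fold lower than the rest (log2 ratio -1.66 ± 0.32, SD, n = 9; exact sign-flip permutation p = 0.00391, the smallest that 9 libraries can give, adjusted over 8 measures 0.00781). Chromosome 22 was 2.89-fold lower (log2 ratio -1.53 ± 0.32; exact sign-flip permutation p = 0.00391, adjusted 0.00781; lower in 9 of 9 libraries). All 9 libraries were called against the same Input. These and the other sign-flip p-values therefore measure agreement among libraries with a shared background. The part of the Input in the low density was not tested. Per protein-coding gene the gap was wider, 12.1-fold on chromosome 19 and 5.06-fold on chromosome 22 (exact sign-flip permutation p = 0.00391, adjusted 0.00781, for both). In each library this ratio is the density ratio shifted by the same gene density, which is higher on these chromosomes. The wider gap and its p-value thus follow from the density result and are not a further test. Over the 23 chromosomes, Spearman's rho of gene density with peak density was -0.66, a description only, since all points share the same libraries and gene density goes with base composition.

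The peaks themselves were of ordinary size. Their median length was 166 ± 12.8 bp on chromosomes 19 and 22 and 168 ± 12.3 bp elsewhere (exact sign-flip permutation p = 0.219), and their median fold over Input was 3.59 ± 0.224 against 3.47 ± 0.0841 (exact sign-flip permutation p = 0.133; SD, n = 9). Of the 749 peaks, 92 had a −log10 p of 5 or more, which is 12.3%, against 10.5% of peaks elsewhere. Only 9 reached q of 0.05 or less.

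Gene ends, the 2 kb on either side of the first or last base of a protein-coding gene, carried 57 of the 749 peaks. Their share per library was 7.05 ± 3.65% on chromosomes 19 and 22 and 2.76 ± 0.243% elsewhere (SD, n = 9), a difference of 4.28 ± 3.77 percentage points that was positive in 8 of 9 libraries (exact sign-flip permutation p = 0.0117, adjusted 0.0188). Among peaks with a −log10 p of 5 or more the difference was 2.17 points and did not pass (exact sign-flip permutation p = 0.508). On chromosome 22 alone the difference was -0.615 points, so the higher share was that of chromosome 19, where 50 of 433 peaks lay at gene ends against 7 of 316 on chromosome 22. Gene ends also make up more of the sequence here: 12.9% of usable length on chromosomes 19 and 22 and 4.45% elsewhere. Per Mb and library, gene ends held 0.511 peaks against 0.920 outside them on chromosomes 19 and 22, and 1.62 against 2.69 elsewhere. The bodies of protein-coding genes held 40.8 ± 9.55% of peaks on chromosomes 19 and 22 and 39.8 ± 2.46% elsewhere (exact sign-flip permutation p = 0.645). Among peaks with a −log10 p of 5 or more the difference turned to -15.5 percentage points (exact sign-flip permutation p = 0.00391, the smallest possible, unadjusted). Of the 92 such peaks on chromosomes 19 and 22, 29 lay on the chromosome 22 short arm, where no protein-coding gene is annotated. The part of that arm in this difference was not tested.

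Along both chromosomes, peaks thinned out where genes crowd. The 27 bins of 1 Mb with 0 to 9 protein-coding genes held 1.51 peaks per Mb and library, the 45 bins with 10 to 29 genes 0.701, and the 24 bins with 30 or more genes 0.454. No library had a peak in 6 bins of chromosome 19 and 5 of chromosome 22, and of these bins 6 were among the 24 richest in genes, 5 among the next 45 and 0 among the 27 poorest. Spearman's rho between genes and peaks per bin was -0.52 over 57 bins of chromosome 19 and -0.70 over 39 bins of chromosome 22. With the mean promoter GC of a bin it was -0.67 over 57 bins of chromosome 19 and -0.30 over 38 bins of chromosome 22. These are descriptions over bins that share libraries and base composition, and the part of base composition was not tested.

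The bins with most peaks lay mostly at the centromeres and in gene-poor or zinc finger stretches. On chromosome 22, the bin from 12 to 13 Mb held 43 peaks of the 9 libraries, that from 34 to 35 Mb held 24, and those from 10 to 11 and 11 to 12 Mb held 23 and 21. The bin from 32 to 33 Mb, which holds most of SYN3, followed with 16. On chromosome 19, the bin from 27 to 28 Mb, at the long-arm edge of the centromere gap, held 32 peaks, and the zinc finger bins from 22 to 23, 44 to 45 and 21 to 22 Mb held 23, 20 and 18. The bins from 28 to 29 and 31 to 32 Mb had 17 each. The first 4 bins of this kind on chromosome 22 contain no protein-coding gene at all.

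**Figure D2:**
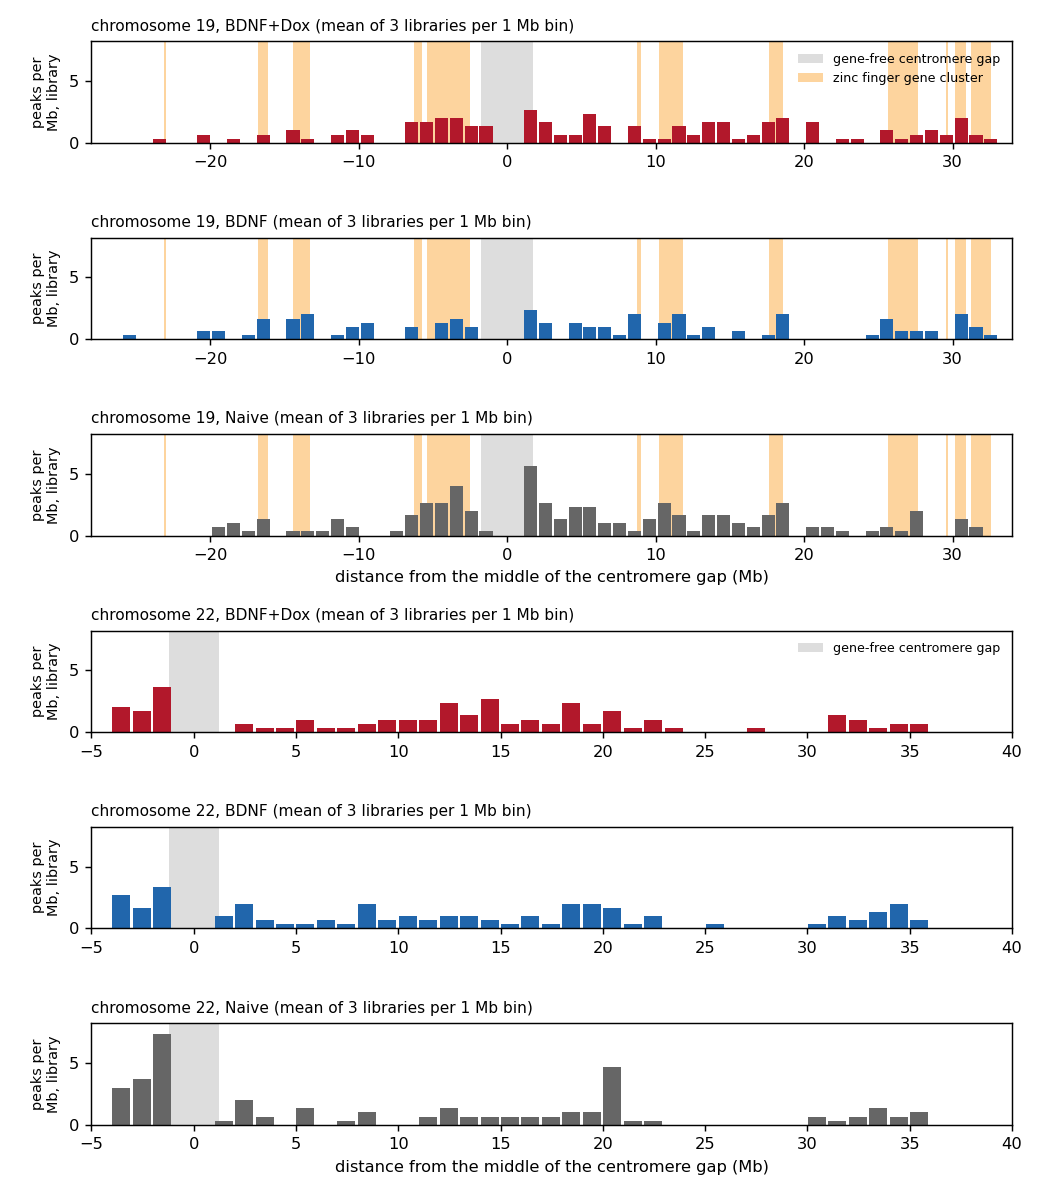
Peaks per 1 Mb bin and library (mean of 3 libraries) along chromosomes 19 and 22, by distance from the middle of the gene-free centromere gap in Mb, negative on the short arm, with BDNF+Dox, BDNF and Naive in separate rows. Bars are highest on the chromosome 22 short arm and beside the chromosome 19 gap, with 11 BDNF+Dox, 10 BDNF and 22 Naive peaks in the highest bin.

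No bin passed between the groups after adjustment. In the limma fit over all bins of the genome, 0 of 2527 bins passed an adjusted p of 0.05 in each of the 3 comparisons (background 0.0%), and 35 of these bins lie on chromosomes 19 and 22. Without adjustment, 139, 140 and 149 bins had a limma p under 0.05 for BDNF+Dox against BDNF, BDNF+Dox against Naive and BDNF against Naive, of which 1, 2 and 4 were on chromosomes 19 and 22. The bin from 34 to 35 Mb of chromosome 22, without a protein-coding gene, had 4, 1 and 0 peaks in the BDNF+Dox libraries, 1, 1 and 3 in the BDNF libraries, and 5, 5 and 4 in the Naive libraries. Each Naive library was thus at or above every other, with 4 peaks the point where BDNF+Dox and Naive met. The log2 difference of BDNF+Dox against Naive was -1.70 ± 0.77 (SE; limma adjusted p = 0.859). The chromosome 19 bin from 27 to 28 Mb had 6, 2 and 0 peaks in BDNF+Dox, 3, 2 and 2 in BDNF, and 8, 5 and 4 in Naive. Every BDNF library was thus below every Naive library in peak number, while BDNF+Dox overlapped both. The log2 difference of BDNF+Dox against Naive in this bin was -1.48 ± 0.68 (SE; limma adjusted p = 0.859). Simulated 4-fold changes were found in 38 of 100 bins and 2-fold changes in 3 of 100 for BDNF+Dox against BDNF, so changes of that size would mostly have been missed. The simulated counts carried counting error only, in bins drawn from the whole genome. The rate for bins of chromosomes 19 and 22 was not measured.

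Near the centromere gaps, taken as the longest gene-free stretch of each chromosome (3.50 Mb on chromosome 19, 2.45 Mb on chromosome 22), peaks of the 9 libraries together were densest, though not on the long-arm side of chromosome 22. On chromosome 19 the density was 1.58 peaks per Mb and library within 3 Mb of the gap, 1.06 from 3 to 10 Mb, 0.667 from 10 to 20 Mb and 0.481 beyond 20 Mb. On chromosome 22 it was 2.06 within 3 Mb, 0.587 from 3 to 10 Mb, 1.26 from 10 to 20 Mb and 0.382 beyond. The density thus fell with each step on chromosome 19, while on chromosome 22 the stretch from 10 to 20 Mb, whose fullest bin was that from 34 to 35 Mb, lay above the one before it. In BDNF+Dox that stretch (1.47 ± 0.503 peaks per Mb) was level with the first 3 Mb of chromosome 22 (1.39 ± 0.255), while BDNF had 1.07 ± 0.208 there against 1.94 ± 0.770 and Naive 1.23 ± 0.153 against 2.83 ± 0.882 (SD, n = 3 each). Of the 111 peaks within 3 Mb on chromosome 22, 87 lay on the short arm, and the long-arm side held 24, or 0.889 per Mb and library.

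The short arm of chromosome 22 stood apart. Its 3 usable Mb held 87 peaks, 3.22 per Mb and library, against 0.707 on the long arm, 0.704 on the short arm and 0.910 on the long arm of chromosome 19. Of its peaks, 33.3% had a −log10 p of 5 or more, against 8.30% on the long arm of chromosome 22. On the short and long arms of chromosome 19 it was 14.5% and 7.87%. The BDNF+Dox libraries had 9, 7 and 6 peaks on the chromosome 22 short arm, the BDNF libraries 11, 7 and 5, and the Naive libraries 19, 7 and 16, so the groups overlapped. No protein-coding gene is annotated on this arm in the reference used, and the nearest, the olfactory receptor gene OR11H1, lies on the long arm.

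Peaks of different libraries rarely fell in 1 place, and that short arm supplied 14 of the 28 places where they did. After merging peaks that overlapped by 1 bp or more, chromosomes 19 and 22 held 711 regions, 28 of them with a peak in at least 2 libraries (3.94%, against 2.37% of regions genome-wide) and 4 in at least 3 (0.563%, against 0.137%). The short arm supplied all 4 of the last kind. The most recurrent region, chr22:10732407-10733092, was called in 3 of 3 BDNF+Dox, 2 of 3 BDNF and 2 of 3 Naive libraries. The region chr22:12191176-12191408 had one in 1 BDNF+Dox, 2 BDNF and 1 Naive library, chr22:12195427-12195696 in 2 BDNF+Dox, 0 BDNF and 2 Naive libraries, and chr22:12529374-12529637 in 1 BDNF+Dox, 2 BDNF and 0 Naive libraries. None of the 4 lies in an annotated gene, and the first is 3.08 kb from LOC124905166. No region of either chromosome had a peak in every library of 1 group and in none of another, where the genome-wide background was 0.00305% for BDNF+Dox over BDNF, for BDNF+Dox over Naive and for Naive over BDNF+Dox, 0.00457% for Naive over BDNF and 0.0% for BDNF over either.

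**Figure D3:**
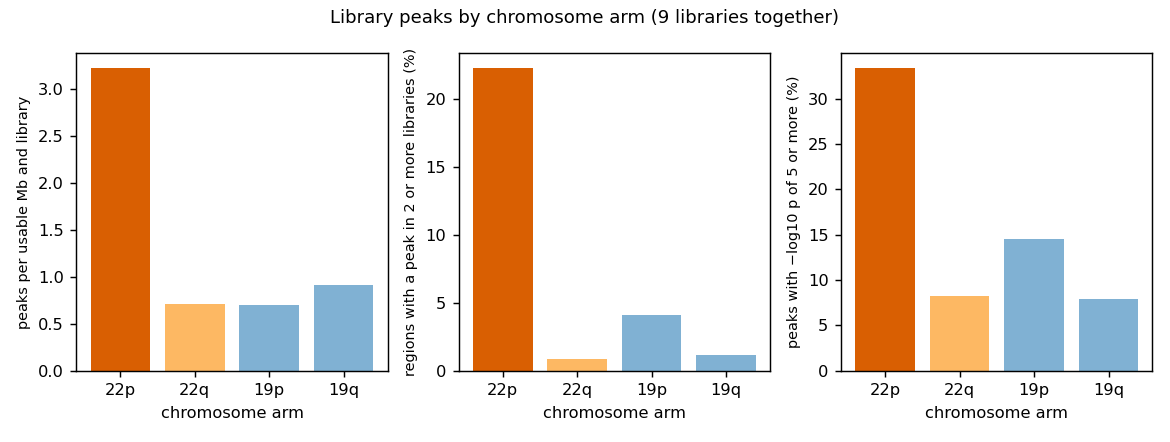
Library peaks by chromosome arm, 9 libraries together: peaks per usable Mb and library (left), share of merged regions with a peak in 2 or more libraries (middle) and share of peaks with a −log10 p of 5 or more (right). The chromosome 22 short arm is highest in all panels, at 3.22 per Mb, 22.2% and 33.3%.

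The strongest single peaks came from the same arm. Of the 9 library peaks with q of 0.05 or less, 5 lay on the chromosome 22 short arm. In the region chr22:12195427-12195696 the peak had a fold of 6.35 and q = 0.000739 in BDNF+Dox replicate 2, 5.77 and q = 0.0130 in Naive replicate 1, and 5.40 and q = 0.0374 in Naive replicate 3. The single one on chromosome 19 was a Naive replicate 1 peak at chr19:11753262-11753490, 13.5 kb from the zinc finger gene ZNF441, with a fold of 5.90 and q = 0.00909. The other 3 lay on the long arm of chromosome 22, 64.7 kb or more from the nearest protein-coding gene (TAFA5 or TBC1D22A), with 1 each in a BDNF+Dox, a BDNF and a Naive library.

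Zinc finger gene clusters carried a large part of the chromosome 19 peaks. Runs of at least 5 zinc finger genes with gaps of no more than 250 kb gave 12 clusters, with 244 of the 265 zinc finger genes of the chromosome in 12.5 Mb. That is 21.9% of usable length, and 188 of 433 peaks (43.4%) lay in it. Inside the clusters the BDNF+Dox libraries had 2.65, 1.20 and 0.562 peaks per Mb, the BDNF libraries 1.61, 1.28 and 1.85, and the Naive libraries 2.73, 1.28 and 1.93. On the rest of the chromosome all libraries lay between 0.359 and 0.943, and each was below its own value inside the clusters. The mean was 1.68 ± 0.700 inside against 0.611 ± 0.201 outside (SD, n = 9), a log2 ratio of 1.39 ± 0.57 or 2.63-fold, higher in 9 of 9 libraries (exact sign-flip permutation p = 0.00391, unadjusted, in a test chosen after the data were seen). Inside the clusters the density still lay below the 2.64 of the other chromosomes. The parts of gene density, base composition and distance from the centromere gap in the 2.63-fold ratio were not tested. The 1 Mb bin starting at base 22000001, whose 8 protein-coding genes are zinc finger genes, held 23 peaks at a promoter GC of 52.9%. The bin starting at 27000001, without a protein-coding gene, held 32 at 47.5%. The bin starting at 44000001, with 30 genes, 15 of them zinc finger genes, held 20 at 58.9%.

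**Figure D4:**
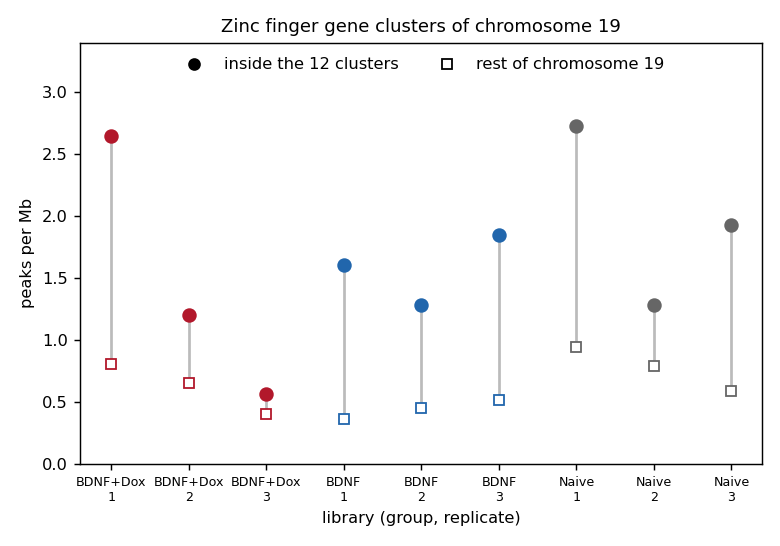
Peaks per Mb in each of the 9 libraries inside the 12 zinc finger gene clusters (filled circles) and on the rest of chromosome 19 (open squares), by group. The filled circle is above the square in all 9 libraries, and the gap is narrowest in BDNF+Dox replicate 3 (0.562 against 0.404).

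The clusters differed among themselves. The largest, from ZNF737 to ZNF91 next to the centromere gap, held 53 peaks in 2.87 Mb, with 7, 7 and 3 in BDNF+Dox, 6, 1 and 4 in BDNF, and 11, 8 and 6 in Naive. ZNF91 is known to repress SVA transposable elements. The densest, from ZNF575 to ZNF180 on the long arm, held 26 peaks, 2.98 per Mb and library. The distal cluster from ZIM3 to ZNF446, with 49 zinc finger genes, held 9 peaks or 0.738 per Mb and library, and the short clusters ZNF554 to ZNF77 and ZNF628 to ZNF580 held 0. Cluster density thus ranged from 0 to 2.98. The cluster from ZNF653 to ZNF791 had 3, 0 and 1 peaks in BDNF+Dox, 2, 4 and 5 in BDNF, and 1, 0 and 1 in Naive. Every BDNF library was thus above every Naive library, while BDNF+Dox overlapped both. Single clusters were not tested between groups.

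At the level of genes, 80 of the 265 zinc finger genes (30.2%) had a library peak, against 57 of 1145 other protein-coding genes of chromosome 19 (4.98%) and 49 of 439 genes of chromosome 22 (11.16%). Per Mb of gene and library this was 1.66 peaks in zinc finger genes, 0.342 in other chromosome 19 genes and 0.632 in chromosome 22 genes. The median zinc finger gene is longer, at 23.2 kb, than the median of the other genes of the chromosome, at 12.6 kb, and the rate per Mb accounts for that. No test was made of these shares, since genes of a cluster share their sequence and libraries. Zinc finger genes are also near-identical repeats of one another in part, so that reads placed among paralogs are uncertain.

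Gene lists drawn up for these chromosomes varied around the 186 of 1849 protein-coding genes (10.1%) that had a library peak. Carcinoembryonic antigen and pregnancy-specific genes, cell surface and placental glycoproteins, had a peak in 5 of 22 (22.7%): CEACAM5, CEACAM20, CEACAM21, PSG2 and PSG3. Genes of the chromosome 22 region deleted in DiGeorge syndrome had one in 5 of 35 (14.3%): DGCR2, the histone chaperone gene HIRA, the mitochondrial thioredoxin reductase gene TXNRD2, the lipid kinase gene PI4KA and the clathrin gene CLTCL1. Neuronal genes had one in 4 of 45 (8.89%), SYN3, SEZ6L and ATXN10 among them. The share was 7.69% for cytochrome P450 genes (1 of 13, CYP2B6) and 4.55% for the leukocyte receptor complex (1 of 22, LILRB1). A peak was found in 0 of 15 kallikreins, 0 of 14 ribosomal protein genes, 0 of 7 APOBEC3 cytidine deaminase genes and 0 of 6 BAF complex and arginine methyltransferase genes. The last include SMARCA4 and SMARCB1, subunits of the BAF chromatin remodelling complex, and PRMT1, which writes the asymmetric form of the mark. The lists without a peak had median gene lengths of 7.09 kb (kallikreins), 4.27 kb (ribosomal proteins), 10.4 kb (APOBEC3) and 51.3 kb (BAF complex and arginine methyltransferases), against 15.8 kb for all 1849 genes.

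TTC28, on chromosome 22, a gene of 702 kb linked to cell division, had 1, 3 and 4 peaks in the BDNF+Dox libraries, 0, 0 and 1 in the BDNF libraries, and 1, 0 and 1 in the Naive libraries. BDNF+Dox replicates 2 and 3 exceeded every other library, while BDNF+Dox replicate 1 did not. The means were 2.67 ± 1.53, 0.333 ± 0.577 and 0.667 ± 0.577 (SD, n = 3 each), a difference that did not pass (exact permutation p = 0.143 over the 3 groups, adjusted p = 1 over the 1571 protein-coding genes with 5 or more library peaks, of which 0.0% passed and 40 had an unadjusted exact permutation p under 0.05). TTC28 was among the genes with a peak in 5 or more of the 9 libraries, 2 of 1849, where 5.49% of all protein-coding genes met that rule. At least 3 libraries had a peak in 20 of 1849 genes, against 12.8% of all.

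On chromosome 19, ZNF536, a zinc finger gene known to restrain neuronal differentiation, had 0, 0 and 0 peaks in BDNF+Dox, 0, 0 and 1 in BDNF, and 1, 2 and 1 in Naive. It was the 1 gene of 1849 with a peak in all Naive and no BDNF+Dox libraries, a pattern that 0.141% of all protein-coding genes showed (exact permutation p = 0.107 over the 3 groups, adjusted 1). No gene here had the opposite pattern (background 0.262%), or a peak in every BDNF+Dox but no BDNF library (0.363%), the reverse (0.0606%), every BDNF but no Naive library (0.0606%) or the reverse (0.278%). Its peaks did not share a region. Its neighbour TSHZ3, a zinc finger homeobox gene, had 4 peaks in 4 libraries. MYO18B, an unconventional myosin gene, and TBC1D22A, a GTPase-activating protein gene, had 4 each, SYN3, which encodes a synapsin, had 3 and SIPA1L3 had 1. No library had a peak in CACNA1A, the 300.04 kb gene of the P/Q-type calcium channel, in MUC16, a 217 kb mucin gene, or in SMARCA4, SMARCB1 or PRMT1. No gene had a gene-end peak in 3 or more libraries, against 0.0656% of all protein-coding genes. Nor was there a gene with such a peak in all libraries of 1 group and none of another, where the background was 0.00505% for BDNF over BDNF+Dox and over Naive and 0.0% in the other directions.

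The groups were compared on 7 measures of chromosomes 19 and 22, to ask whether differentiation or α-synuclein induction changed the mark there. Peak numbers were 111, 76 and 51 in BDNF+Dox, 83, 58 and 82 in BDNF, and 119, 80 and 89 in Naive. The means were 79.3 ± 30.1, 74.3 ± 14.2 and 96.0 ± 20.4 (SD, n = 3 each), with all groups overlapping (exact permutation p = 0.468, adjusted over the 7 measures 0.655). As a share of each library's peaks on chromosomes 1 to 22 and X, they made up 1.03, 1.1002 and 0.809% in BDNF+Dox, 1.36, 1.29 and 1.20% in BDNF, and 0.981, 1.37 and 1.13% in Naive. Each BDNF+Dox library was thus below each BDNF library, a mean difference of -0.303 percentage points (exact permutation p = 0.1, the smallest that 3 against 3 libraries can give, and 0.132 over the 3 groups, adjusted 0.308). With equal peak numbers the difference was -0.244 points (exact permutation p = 0.4), and at −log10 p of 5 or more -0.609 (exact permutation p = 0.3). It was -0.129 on chromosome 19 alone (exact permutation p = 0.4) and -0.173 on chromosome 22 alone (exact permutation p = 0.1). The direction thus held, but the full separation of the groups did not hold throughout. Covered length averaged 15.7 ± 7.35 kb in BDNF+Dox, 14.3 ± 3.91 kb in BDNF and 18.3 ± 3.08 kb in Naive (exact permutation p = 0.611, adjusted 0.713). Kept reads numbered 18027832 to 18928589 in BDNF+Dox, 17164402 to 18229482 in BDNF and 17813382 to 18147647 in Naive libraries, and the part of depth in these measures was not tested.

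The share of peaks near the centromere gaps set the Naive libraries apart, without passing after adjustment. Within 3 Mb of a gap lay 23.4, 26.3 and 21.6% of the peaks in BDNF+Dox, 32.5, 22.4 and 23.2% in BDNF, and 38.7, 38.8 and 36.0% in Naive. Every Naive library was above every library of either other group. The mean difference from Naive was -14.0 percentage points in BDNF+Dox and -11.7 in BDNF (exact permutation p = 0.1 for each pair, the smallest possible). Over the 3 groups the exact permutation p was 0.025, adjusted 0.0875. Counted against all peaks of a library, these peaks made up 0.241, 0.290 and 0.174% in BDNF+Dox, 0.442, 0.289 and 0.277% in BDNF, and 0.379, 0.531 and 0.408% in Naive. On that scale every BDNF+Dox library was below every Naive library, while BDNF overlapped both. The difference on that scale was not tested. For the share of peaks on both chromosomes, the exact permutation p over the 3 groups was 0.0714 without the short arm of chromosome 22, and 0.164 on chromosome 19 alone. Without any 1 of the 3 Naive libraries it was 0.0607.

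Inside protein-coding genes lay 42.3, 56.6 and 49.02% in BDNF+Dox, 37.3, 43.1 and 43.9% in BDNF, and 22.7, 33.8 and 38.2% of the peaks in Naive. Every BDNF+Dox library was above every Naive library, while BDNF overlapped both. BDNF+Dox exceeded Naive by 17.8 percentage points (exact permutation p = 0.1, and 0.0214 over the 3 groups, adjusted 0.0875, which did not pass). Over the 3 groups the exact permutation p was 0.0786 without BDNF+Dox replicate 2 and 0.0929 without Naive replicate 1. On the other chromosomes too, the share inside genes was higher in every BDNF+Dox library (40.7, 42.0 and 44.3%) than in every Naive library (36.6, 37.9 and 38.8%). BDNF libraries had 37.1, 40.4 and 40.6% there. The order of BDNF+Dox above Naive was thus not particular to chromosomes 19 and 22. Few genes lie next to the gaps, and no protein-coding gene is annotated on the chromosome 22 short arm. The 87 peaks of that arm count near the gaps but never inside genes. The share near the gaps and the share inside genes are therefore not independent. Gene-end shares were 7.21 ± 6.45% in BDNF+Dox libraries, 6.76 ± 3.07% in BDNF libraries and 7.17 ± 1.42% in Naive libraries (SD, n = 3 each; exact permutation p = 0.993, adjusted 0.993). Of the chromosome 19 peaks, 36.6 ± 10.2% lay in zinc finger clusters in BDNF+Dox libraries, 50.0 ± 5.56% in BDNF libraries and 41.4 ± 8.81% in Naive libraries (exact permutation p = 0.239, adjusted 0.419).

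**Figure D5:**
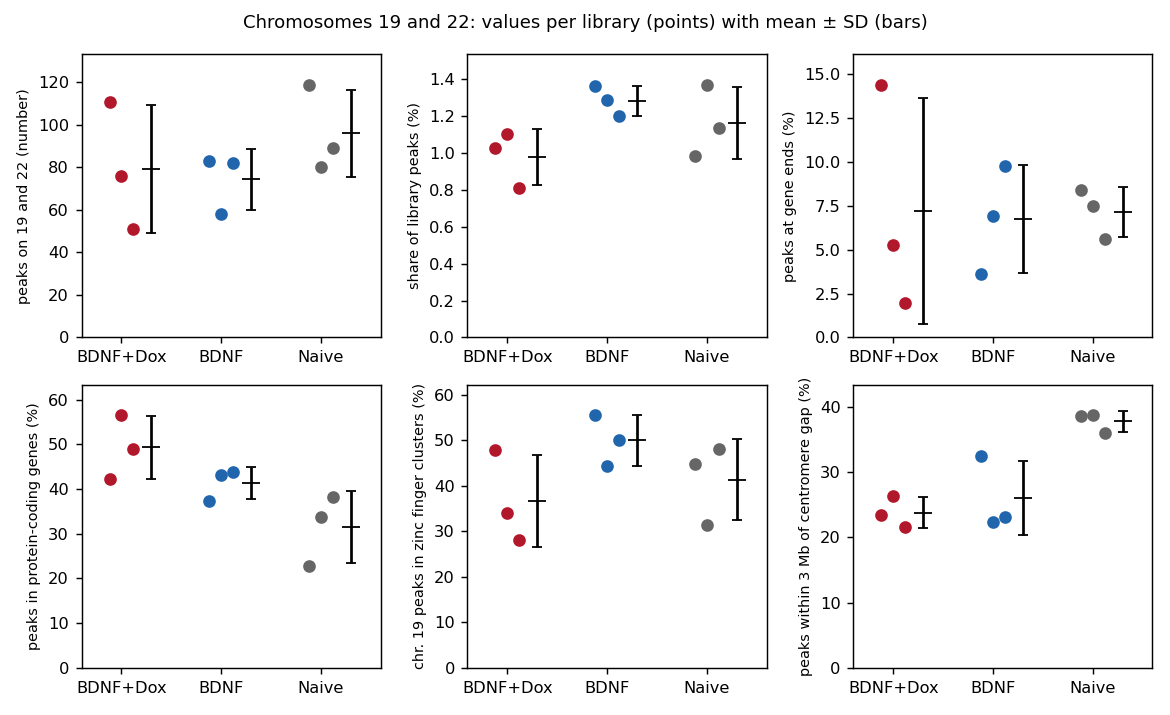
Values of the 9 libraries on chromosomes 19 and 22 (points) with the mean and SD of each group (n = 3), for BDNF+Dox, BDNF and Naive: peak number, share of library peaks, and shares at gene ends, in protein-coding genes, in zinc finger clusters and within 3 Mb of the centromere gap. Groups overlap except that Naive lies above both others near the gap, BDNF+Dox lies above Naive inside genes, and BDNF+Dox lies below BDNF in the share of library peaks.

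The authors' pooled calls compared merged BDNF+Dox reads directly with merged BDNF and merged Naive reads, without replicates. In the authors' deposited table of narrow peaks over BDNF, 59 of the 91 peaks lay on chromosome 19 and 36 of those 59 in a zinc finger cluster. Over Naive, the authors' deposited table had 55 of 81 on chromosome 19, of which 30 lay in a cluster. At q of 0.05 or less, the authors' deposited table held 2 of 91 peaks over BDNF (0.952% of the whole list) and 1 of 81 over Naive (1.2% of the whole list). Among broad peaks, the authors' deposited table held 0 of 224 and 0 of 196 at that level (0.0475% and 0.0544% of the whole lists). Folds and q-values of pooled peaks are the authors' own.

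The strongest peak over BDNF lay inside the zinc finger cluster from ZNF575 to ZNF180, at chr19:43858063-43858281, where the authors' deposited table gave a fold of 4.46 and q = 0.00201. It lay 6.05 kb from ZNF283 and outside any protein-coding gene. The next (fold 4.15, q = 0.0212 in the authors' deposited table) was at chr22:50649537-50649735, 21.4 kb from ARSA, the arylsulfatase A gene whose loss causes metachromatic leukodystrophy. Over Naive, the strongest was at chr19:31713122-31713348, where the authors' deposited table gave a fold of 4.17 and q = 0.0131, 362 kb from the nearest protein-coding gene, TSHZ3. None of these 3 pooled peaks overlapped a peak of any single library. Of the narrow peaks in the authors' deposited table, 10 of 91 over BDNF (11.0%) and 18 of 81 over Naive (22.2%) coincided with a peak called in 1 or more BDNF+Dox libraries.

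At gene ends and inside genes, no pooled narrow peak reached q of 0.05 in the authors' deposited tables, and zinc finger genes were among those with the smallest q. A peak 0.801 kb from ZNF66, at chr19:20810796-20811041, had q = 0.0757 over BDNF and q = 0.0593 over Naive in the authors' deposited table, and it overlapped a peak of 1 BDNF+Dox library. Peaks at the ends of ZNF584, ZNF235 and ZNF726 had q = 0.0757, 0.503 and 0.827 over BDNF in the authors' deposited table. The narrow list over BDNF in the authors' deposited table held only 8 gene-end peaks, and 7 of them lay at zinc finger genes. Of all 59 chromosome 19 peaks of that list, 36 lay in a zinc finger cluster. The gene-end peaks at ZNF772, ZNF491 and ZNF382 had q = 1, as had that near DMRTC2. Inside genes and away from their ends, the smallest q over BDNF in the authors' deposited table was 0.221 in ZNF565, followed by 0.486 in ZNF91, ZNF382, ZNF790 and the apolipoprotein L gene APOL2, 0.716 in NWD1 and 0.827 in ZNF625 and TDRD12. Over Naive it was 0.214 in HIRA in the authors' deposited table, then 0.564 in ZFP14, ZNF420, IGFL2, ZNF541 and APOL2, and 1 in ZNF69 and ZNF625. Gene-end peaks over Naive in the authors' deposited table had q = 0.564 at ZNF14 and q = 1 at ZNF560 and ZNF235.

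TTC28 held 4 narrow and 10 broad peaks over BDNF and 5 narrow and 7 broad peaks over Naive in the authors' deposited tables. ZNF536 held 1 of each kind in each of the authors' deposited tables. The merged BDNF+Dox reads are shared by the 2 comparisons and are those of the libraries, so the pooled peaks are not a second measurement.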

How the data were processed

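H4R3me2s ChIP-seq peak lists of 9 SH-SY5Y libraries and 4 pooled lists were used as deposited, and the labels gave the groups. The submitters' processing notes name cutadapt 1.1, Trimmomatic 0.32, Bowtie (no version stated), the build GRCh38 and MACS2 2.2.7.1. The authors called peaks at a p cutoff of 0.01 with 1 read kept per position and the datasets scaled down to the smaller one, per the file headers. Each deposited peak has a length in bp, a pileup signal, a −log10 p-value, a −log10 q-value and a fold, a ratio over local background. The headers state that q was not calculated, yet the deposited column holds values, used as given. The headers give 17164402 to 18928589 kept reads per library and 17074000 for the Input. As the lists carry no reads per region, single peaks have no interval.

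Genes came from a RefSeq annotation of GRCh38 with spans only (no exons or introns, and 58 and 59 rows of unplaced sequence on chromosomes 19 and 22 left out), so gene ends of 2 kb replace promoters in tests. Measures per library were compared between groups by exact permutation of the F ratio (1680 assignments) and with the other chromosomes by exact two-sided sign-flip tests, with Benjamini-Hochberg adjustment over 7 and 8 measures. Bins of 1 Mb with a mean of 1 or more peaks per library were fitted with limma on log2 of peaks plus 0.5 per 1000 library peaks. Scripts were tested on simulated data.

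The genes named are those of the 8 smallest q at gene ends and inside genes of each pooled narrow list, those recurring in 5 or more libraries, those in all libraries of 1 group and none of another, and the 5 longest of each chromosome, with PRMT1, SMARCA4 and SMARCB1. The 5 fullest bins of each chromosome were named too. Some of these genes and windows are not reported here. Members and lists were chosen with earlier results of these data known. Alternatives were a −log10 p of 5, equal peak numbers, other windows and gaps, each chromosome alone, a replicate block and leaving out each library. Same-numbered libraries did not deviate together more than others (correlations up to 0.0524, and up to 0.0578 for different numbers), so the numbers were not taken to pair samples. Bins hold few peaks per library, so these correlations could miss a pairing.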

Additional observations from a re-analysis of the deposited data

How the results depend on the processing

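Over the alternatives tried, 321 values kept their side of the threshold or their count, and their direction where the measure has one. An F ratio has no direction. The lower peak density and fewer peaks per gene of chromosomes 19 and 22 did so in every one. The within-gene share between groups (F = 5.603) no longer passed an unadjusted exact permutation p of 0.05 at −log10 p of 5 or more (F = 0.401), on chromosome 22 alone (1.72) or without the chromosome 22 short arm, an alternative chosen after seeing the data (4.16), and F ran from 3.90 to 7.51 when each library was left out, not passing without BDNF+Dox replicate 2 (exact permutation p = 0.0786) or Naive replicate 1 (exact permutation p = 0.0929). The share near the centromere gap (F = 12.7) no longer passed at −log10 p of 5 (4.33), on chromosome 19 alone (2.76) or without that short arm (4.85), and F ran from 7.58 to 58.2 when each library was left out, not passing without any 1 of the Naive libraries (exact permutation p = 0.0607 each). With the replicate numbers as a block, its F was 14.2 (exact permutation p = 0.0833), and the block changed no other call. The F of the within-gene share rose to 17.3 with the block (exact permutation p = 0.0278). The labels do not state whether the numbers pair the samples.

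Against the other chromosomes, the gene-end share difference was 2.17 points at −log10 p of 5, where it no longer passed (exact permutation p = 0.508), and -0.615 on chromosome 22 alone. The within-gene difference became -15.5 at −log10 p of 5, where it passed (exact permutation p = 0.00391), -4.31 on chromosome 22 alone and -0.764 to 2.80 when each library was left out. The log2 ratio of median lengths became 0.0215 at −log10 p of 5 and 0.0314 on chromosome 22 alone, and that of median folds passed without Naive replicate 3 (0.0347 to 0.0672 over the libraries left out). The log2 difference in peak number of BDNF+Dox minus BDNF (0.04) was -0.164 at −log10 p of 5, -0.295 with equal peak numbers, -0.0304 on chromosome 22 alone and -0.237 to 0.324 when each library was left out. BDNF minus Naive was 0.257 with equal peak numbers, and its share difference was -0.0255 points on chromosome 19 alone. Pooled narrow peaks numbered 2 at q of 0.05 and 18 at −log10 p of 5 over BDNF, and 1 and 12 over Naive. The count of bins called for BDNF+Dox against BDNF was 0 to 2 when each library was left out, and 2 only without BDNF+Dox replicate 3. The cause of these changes was not tested. With 3 libraries a group no pair can go below an exact permutation p of 0.1, and thin lists, with few peaks at q of 0.05, limit every count of recurrence.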
